A study of Mus musculus with 21 samples.

Results

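Mitochondrial ribosomal protein genes were taken as all genes whose symbol starts with Mrpl or Mrps followed by a digit and that had a probe set of their own on the array. There were 76 such genes among 18194 genes measured, 47 named for the large subunit (Mrpl) and 29 for the small subunit (Mrps). Each gene was read from its probe set with the highest mean log2 intensity over all 21 arrays, and the choice used no difference between groups. A RefSeq gene table (GRCm38.p6) held 78 such genes, and all 76 measured ones matched it by gene identifier. The other 2, Mrpl30 and Mrpl53, lay only on probe sets that name several genes and were not analysed here.

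The mitochondrial ribosome translates the few proteins encoded by mitochondrial DNA, which are subunits of the respiratory chain and of ATP synthase. Its RNAs come from the mitochondrial genome, while its proteins are encoded in the nucleus, made in the cytosol and imported. Many of these proteins have a counterpart in the bacterial ribosome, and the others are found only in mitochondria. Haematopoietic stem cells are known for relying little on respiration, and mitochondrial activity is known to increase as they differentiate.

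The arrays measured RNA of sorted bone marrow cells from C57/BL6 mice. LSK cells lack lineage markers and carry Sca-1 and Kit, a fraction rich in stem and multipotent cells. Granulocyte-macrophage progenitors (GMP) are their descendants committed to the myeloid lineage. Control mice were Dot1l wt/wt and carried Mx-Cre, and Dot1l-deleted mice were Dot1l fl/fl and carried Mx-Cre. Mice of both genotypes received pIpC, an interferon inducer that switches on Mx-Cre in blood-forming and other interferon-responsive cells, so Cre and the injection were common to all groups. Dot1l encodes the methyltransferase of histone H3 lysine 79. The study set Dot1l-deleted cells against controls in 6 control LSK, 6 Dot1l-deleted LSK, 5 control GMP and 4 Dot1l-deleted GMP arrays. Neither the ages of the mice nor the source animal of each array is stated in the labels. The spread between arrays that the p-values rest on may thus be technical.

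The brightest Dot1l probe set did not separate the genotypes. In LSK its mean log2 intensity was 6.48 ± 0.30 (SD, n = 6) with Dot1l intact and 6.37 ± 0.35 (n = 6) after deletion. In GMP the means were 6.74 ± 0.16 (n = 5) with Dot1l intact and 6.22 ± 0.42 (n = 4) after deletion. The sources used here do not say which exons were deleted, so this probe set does not check the labels. Array K1272 of Dot1l-deleted LSK was far from its group, with a mean Spearman correlation of 0.684 to the other arrays of that group and a limma array weight of 0.0718. The Dot1l-deleted GMP arrays K1190 and K1272 were close to each other, with a Spearman correlation of 0.982. The upper quartile of the log2 intensities ran from 6.60 to 6.76 in control LSK and from 6.19 to 6.57 in control GMP, so these groups did not overlap. The Dot1l-deleted groups did not divide in this way, with 6.71 and 6.77 in GMP arrays K1190 and K1272 and 6.18 in LSK array K1272.

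Sort identity was checked with marker lists, each as the mean of its genes' log2 levels after subtracting each gene's mean over the 21 arrays. Stem and multipotent markers (9 genes, among them Flt3, Hlf and Procr) ran from 1.44 to 2.06 in control LSK and from −1.59 to −1.17 in control GMP. Granulocyte-macrophage progenitor markers (8 genes, among them Prtn3, Ctsg and Fcgr3) ran from −2.76 to −0.76 in control LSK and from 1.40 to 1.98 in control GMP. Both lists separated the control groups as labelled. Mature neutrophil markers ran from −0.42 to 4.01 in control LSK and from −0.19 to 0.42 in control GMP, where 8 of 9 were lower and Ltf and Cd177 were called. Erythroid markers ran from 0.17 to 1.47 in control LSK and from −1.37 to −0.67 in control GMP, where 6 of 7 were lower and Car1 and Car2 were called. Of all genes, 65.8% were higher in control GMP than in control LSK and 4.95% were called lower. The part of mature neutrophils and erythroid cells in the members' difference between cell types was not tested. Among the Dot1l-deleted LSK arrays, K1359 lay inside the control LSK range of the stem markers at 1.94, and the other 5 ran from −1.47 to 0.79.

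Nuclear genes of mitochondrial proteins are known for compact promoters with binding motifs of the ETS-family factor GABP, of NRF1 and of YY1. RefSeq promoter windows of 300 bases (250 before and 50 after the transcription start, GRCm38.p6) were found for 67 of the 76 genes, as 73 windows. The ETS motif CCGGAAG, searched on both strands as were the others, was in 34.2% of the members' windows against 8.86% of all 32851 windows. The NRF1 motif, GCGCA followed by any base and GCGC, was in 16.4% against 4.6%, and the YY1 motif AAGATGGCG in 11% against 1.4%. At least 1 of the 3 motifs, none of which contains another, was in 53.4% of the members' windows and in 13.6% of all windows. A match describes letters in the window and is not a measured binding site. The 200 bases before the start are printed for 3 members that were higher in control GMP, and for Mrpl1, which had the opposite order, with motif matches in capitals. All 4 lie on the plus strand.
Mrpl36 (chr13:73330809-73331008): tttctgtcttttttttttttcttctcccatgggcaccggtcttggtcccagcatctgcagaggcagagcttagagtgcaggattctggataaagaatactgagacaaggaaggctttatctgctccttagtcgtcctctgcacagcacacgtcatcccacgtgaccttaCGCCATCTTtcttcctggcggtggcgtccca
Mrps18c (chr5:100798559-100798758): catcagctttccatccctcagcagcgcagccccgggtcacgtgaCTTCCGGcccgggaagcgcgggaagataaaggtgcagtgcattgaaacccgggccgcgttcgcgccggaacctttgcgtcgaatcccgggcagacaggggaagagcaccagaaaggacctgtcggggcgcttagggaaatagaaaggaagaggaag
Mrpl51 (chr6:125192000-125192199): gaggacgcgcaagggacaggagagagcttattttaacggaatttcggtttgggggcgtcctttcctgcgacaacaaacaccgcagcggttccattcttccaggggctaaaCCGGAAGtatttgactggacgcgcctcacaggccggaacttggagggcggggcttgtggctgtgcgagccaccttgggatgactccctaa
Mrpl1 (chr5:96209915-96210114): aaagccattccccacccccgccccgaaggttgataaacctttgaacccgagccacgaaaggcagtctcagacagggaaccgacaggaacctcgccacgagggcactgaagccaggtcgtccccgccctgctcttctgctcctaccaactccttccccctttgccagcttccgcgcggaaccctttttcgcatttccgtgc
The capitals mark a YY1 match on the minus strand that begins at −31 from the start of Mrpl36, an ETS match on the minus strand at −156 from that of Mrps18c and an ETS match on the plus strand at −90 from that of Mrpl51. The window of Mrpl1 held none of the 3 motifs. Mrpl14, the next called member by p with a promoter entry, is not printed. Its 200 bases before the start held none of them either, and an NRF1 match began at +5.

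Members also often share their promoter region with a gene on the other strand. A start of another gene within 1000 bases in the opposite orientation was annotated for 25 of the 67 members with a promoter entry (37.3%), against 12.3% of all genes. Mrpl46 and Mrps11 are partners of each other. The values of the 25 partners measured on the array are given with the comparison of control cell types.

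Across all 21 arrays the members tended to move together. A member's log2 level had a median Pearson correlation of 0.54 with the mean of the other members, with 43 of 76 over 0.5. The highest was Mrpl22 at 0.87 and the lowest Mrpl52 at −0.15, the only member under 0. These correlations are a description, since arrays share their cell type, genotype and quality. The gene outside the family whose level was most like the members' mean was Uqcrfs1 (r = 0.92 over 21 arrays), the Rieske iron-sulfur subunit of respiratory complex III. Gm6787 (0.90), Rab5if (0.89), Adssl1 (0.88) and Chchd4 (0.87), which encodes the oxidative import receptor of the intermembrane space, followed.

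The mean member level, with each gene centred on its own mean, was lowest in control LSK and highest in control GMP. From low to high, the group means were −0.47 ± 0.31 for control LSK (SD, n = 6), 0.03 ± 0.51 for Dot1l-deleted LSK (n = 6), 0.18 ± 0.19 for Dot1l-deleted GMP (n = 4) and 0.38 ± 0.46 for control GMP (n = 5). Control LSK arrays ran from −0.92 to −0.03 with a median of −0.42, so all 6 lay below 0. The Dot1l-deleted LSK arrays split, with K1422 at 0.44, K1091 at 0.39, K1190 at 0.35 and K1421 at 0.13 above the control range, and K1272 at −0.26 and K1359 at −0.87 inside it. Control GMP arrays had −0.17, 0.15, 0.23, 0.66 and 1.01. Dot1l-deleted GMP arrays had 0.003, 0.03, 0.30 and 0.39, all inside the control GMP range. The neighbouring groups in this order overlapped in each case.

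**Figure D1:**
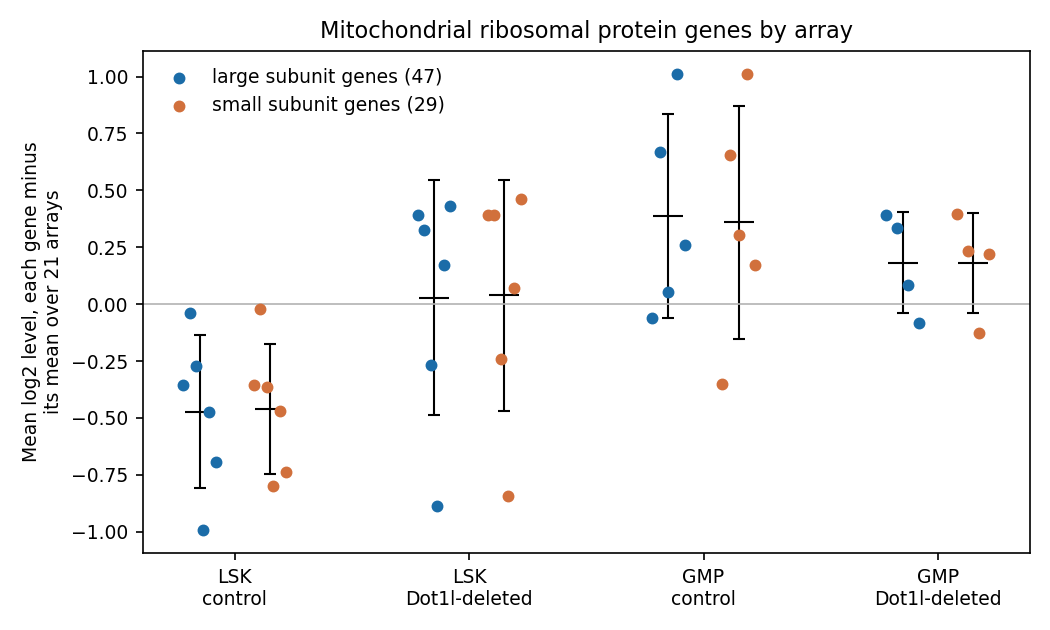
Mean log2 level of the 47 large-subunit and 29 small-subunit genes on each of 21 arrays, each gene minus its own mean over the arrays, with the mean (long bar) and SD (whiskers) of each group. Both subunits gave nearly the same picture, with all 6 control LSK arrays below 0.

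Large and small subunits could hardly be told from each other on this scale. In control LSK the large subunit averaged −0.47 ± 0.33 (SD, n = 6) and the small subunit −0.46 ± 0.29, and in control GMP 0.39 ± 0.45 (n = 5) and 0.36 ± 0.51. In Dot1l-deleted LSK they averaged 0.03 ± 0.52 (n = 6) and 0.04 ± 0.51, and in Dot1l-deleted GMP 0.18 ± 0.22 (n = 4) and 0.18 ± 0.22. Over all genes the same mean lay between −0.12 and 0.12 on every array.

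Control GMP carried more mitochondrial ribosomal protein RNA than control LSK for a wide set of members. Limma called 19 of 76 members at an adjusted p under 0.05, all of them higher in GMP (25% of members, against 7.03% of all genes called higher, 4.95% called lower and 12% called in either direction). In all, 64 of 76 members (84.2%) were higher against 65.8% of all genes, and the median log2 fold change was 0.98 against 0.29 for all genes. The large subunit had 12 of 47 called with a median of 1.01, and the small subunit 7 of 29 with a median of 0.90. With Mrps18a and Mrps30, whose proteins sit in the large subunit despite their names, counted there and Mrps36 left out, the medians were 0.95 for 49 genes and 0.96 for 26. RNA per gene was measured in sorted pools, in which fewer cells of a type and less RNA per cell cannot be told apart.

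The members were also set against genes of higher signal. All 76 passed a filter at the median level of all genes, and among the 9097 genes that passed, the median change was −0.07 and 6.89% were called higher, against 20 of 76 members (26.3%). Of 76 members, 18 were higher in every control GMP array than in any control LSK array (23.7%, against 11.3% of all genes), and none was lower in this way (3.43% of all genes). Members with a bacterial counterpart had 15 of 47 called and a median of 1.12, and mitochondria-specific members 4 of 29 and 0.84. That difference between classes was not tested.

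Mrpl36, the counterpart of bacterial L36, had the smallest p. Its log2 level in control LSK ran from 5.18 through a median of 6.57 to 7.64, and in control GMP it was 8.32, 9.27, 9.30, 9.41 and 9.79. The groups did not overlap, and the log2 fold change was 2.72 ± 0.35 (SE), with an adjusted p of 0.000142. It was called under each of the 32 alternative settings and arrays left out, with fold changes between 2.41 and 2.95.

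Mrpl54, a mitochondria-specific protein of the large subunit, ran from 5.12 through 5.54 to 6.27 in control LSK, and was 6.47, 7.45, 7.67, 8.67 and 9.66 in control GMP. The lowest GMP array lay just above the highest LSK array. The log2 fold change was 2.43 ± 0.42 (SE), with an adjusted p of 0.00127, and it too was called in 32 of 32 alternatives. Mrpl54 had no entry in the promoter table.

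Mrps18c, 1 of 3 mammalian relatives of bacterial S18, ran from 8.44 through 10.32 to 10.88 in control LSK and was 11.53, 11.92, 11.92, 11.94 and 12.22 in control GMP. The GMP arrays lay close together and the LSK arrays were spread over more than 2 units. The fold change was 1.99 ± 0.38, with an adjusted p of 0.0028, called in 32 of 32 alternatives. Its relative Mrps18b, also of the small subunit, differed by 1.36 ± 0.35 (adjusted p = 0.0193). The third relative, Mrps18a, which sits in the large subunit, differed by 0.90 ± 0.44 and was not called (adjusted p = 0.153).

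Mrpl51, another mitochondria-specific protein, ran from 9.70 through 10.69 to 11.15 in control LSK, and was 11.72, 11.82, 12.08, 12.13 and 12.20 in control GMP, without overlap. Its fold change was 1.47 ± 0.31 (adjusted p = 0.00562). The 2 other Mrpl51 probe sets were much dimmer and gave 0.03 and −0.30, so the call rests on 1 probe set. For Mrpl14, which binds the assembly factor Malsu1, the change was 1.86 ± 0.42 (adjusted p = 0.00927), and control GMP arrays at 6.17 to 7.34 lay above control LSK arrays at 4.17 to 5.17. Mrpl22, a protein of the peptide exit tunnel, followed with 1.33 ± 0.33 (adjusted p = 0.0149). Mrpl55, with 1.72 ± 0.43, and Mrpl33, with 1.24 ± 0.32, are counterparts of bacterial L31 and L33.

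**Figure D2:**
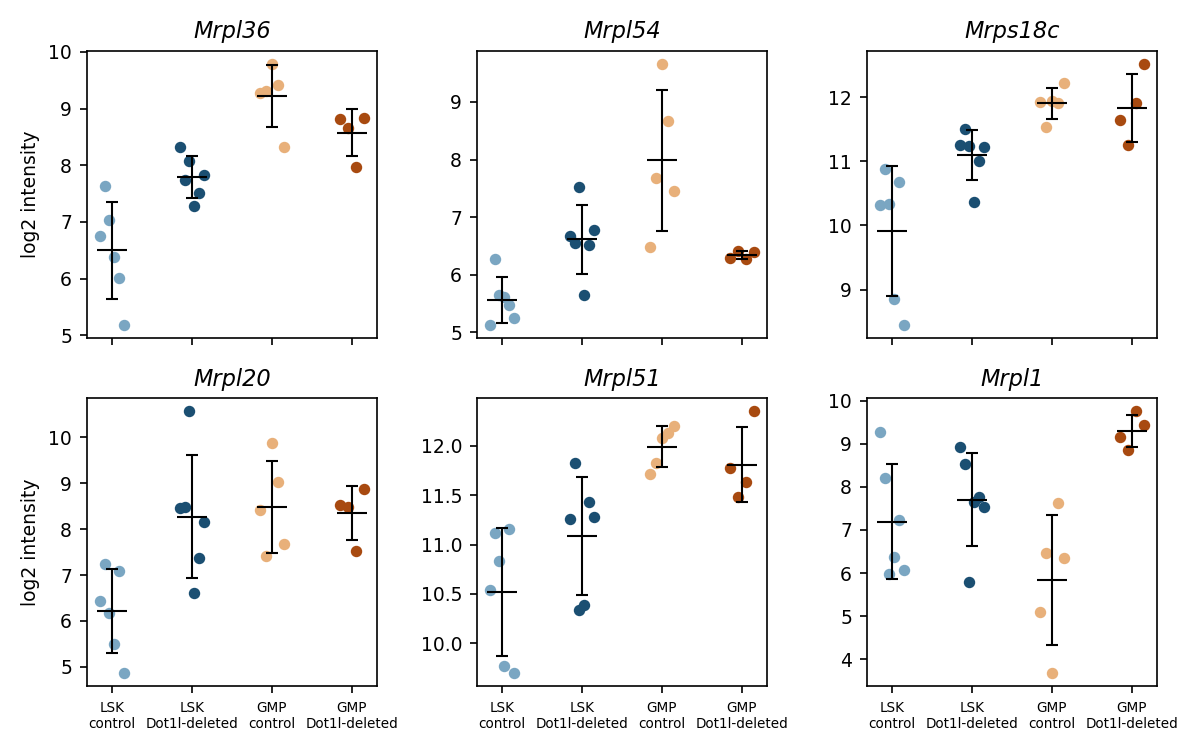
Log2 intensity of 6 members on every array, by group, with the group mean (long bar) and SD (whiskers); each panel has its own axis. Mrpl36, Mrpl54, Mrps18c, Mrpl20 and Mrpl51 were higher in all 5 control GMP arrays than in all 6 control LSK arrays, while Mrpl1 was highest in Dot1l-deleted GMP.

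The 7 called members of the small subunit all have or resemble a bacterial counterpart. So do most members of the small subunit, and 47 of all 76 members. Mrps12, a counterpart of the decoding-centre protein S12, went from 7.8 ± 0.56 in the 6 control LSK arrays (mean ± SD) to 9.27 ± 0.59 in the 5 control GMP arrays, a log2 difference of 1.47 ± 0.42 (SE) with an adjusted p of 0.0287. Mrps16, which is mutated in a human combined respiratory chain deficiency, had 6.60 ± 0.63 and 8.23 ± 0.57, a difference of 1.62 ± 0.46 with an adjusted p of 0.0286 and the groups only just apart. Mrps22, a mitochondria-specific protein mutated in a similar disorder, had 8.48 ± 0.59 and 8.08 ± 1.67 and was not called (adjusted p = 0.68). Mrps36, now known as a subunit of the 2-oxoglutarate dehydrogenase complex rather than of the ribosome, gave 1.17 ± 0.40 and just missed the threshold (adjusted p = 0.0579).

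Landmark proteins of the large subunit gave no uniform order. Mrpl12, the stalk protein that recruits translation factors and is also known to bind the mitochondrial RNA polymerase, went from 7.32 ± 0.30 to 8.80 ± 0.72 over the same arrays, and its difference of 1.48 ± 0.54 (SE) was not called (adjusted p = 0.0749). All 5 GMP values, from 8.18 to 9.70, lay above the 6 LSK values, from 6.98 to 7.61. Mrpl44, which carries a ribonuclease III-like fold, gave 0.53 ± 0.26 (adjusted p = 0.155). Mrpl3, near the peptidyl transferase centre, gave −0.34 ± 0.42 (adjusted p = 0.552), and Mrps30 gave 0.27 ± 0.42. Other, dimmer Mrpl3 probe sets gave 0.55, −0.35 and 0.49, so its sign varied with the probe set.

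Of the 12 members lower in control GMP none was called, and their log2 fold changes ran down to −1.35 for Mrpl1, a counterpart of the L1 stalk protein (SE 0.68, adjusted p = 0.162). Other probe sets existed for 42 members, 80 in all, and 58 of the 80 had the same sign as the one used. For called members 9 of 11 did.

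The count of calls moved with single arrays and with settings. Without the control GMP array K1603 or K1604 it was 9, and without the control LSK array K1601 or K1604 it was 11. Without array K1272 of Dot1l-deleted LSK, through the common estimate of spread, it was 32. With the K number of the titles as a fixed block it was 3. These counts are given without the share of all genes called in the same runs. When each array's upper quartile entered the fit as a covariate, 74 of 76 members were higher against 51.3% of all genes, and 13 were called, of which 5 were among the 19. In that fit 35 members were higher at an unadjusted p under 0.05, beside 10.8% of all genes.

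The other mitochondrial gene lists did not move as 1 block between control cell types. Of all genes, 65.8% were higher in control GMP, 7.03% were called higher and 4.95% called lower. Oxidative phosphorylation subunits had 44 of 76 genes called higher and none lower, with a median of 1.17. Atp5l (2.71 ± 0.38, SE) and Atp5mpl (3.38 ± 0.49), both of ATP synthase, and Cox7a2 (2.53 ± 0.44), of cytochrome c oxidase, had the smallest p there. The mitochondrial import list had 7 of 23 called higher, with a median of 0.72, led by the intermembrane space chaperone Timm10 (1.46 ± 0.26) and the outer membrane receptors Tomm22 (1.04 ± 0.21) and Tomm20 (1.14 ± 0.29). Cytosolic ribosomal protein genes, chosen by symbol, had 38 of 49 higher, 10 called higher and a median of 0.24, below the 0.29 of all genes. That median lay above the −0.07 of the 9097 genes above the median level, of which 6.89% were called higher. Rps27 gave 1.32 ± 0.35 and Rpl39 0.77 ± 0.22, while Rps19bp1 at 2.07 ± 0.34 matches the symbol rule and is a binding protein.

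Genes that serve the mitochondrial ribosome without being part of it had medians at or below that of all genes. Against the −0.07 of the 9097 genes above the median level, assembly factors lay above, and translation factors and synthetases below. For each list, the share of all genes called higher was 7.03% and that called lower 4.95%. Of 13 translation factors 3 were called higher and 1 lower, with a median of −0.15. The RNA-binding protein gene Slirp was higher by 2.78 ± 0.50 and the membrane insertase gene Oxa1l by 1.22 ± 0.38, and Guf1, a GTPase of elongation, was lower (−1.69 ± 0.39). Of 23 assembly factors 3 were called higher and 1 lower, with a median of 0.24. Malsu1 (1.68 ± 0.30) and Mpv17l2 (2.04 ± 0.47), both known in large-subunit assembly, were higher, and Mterf3 was lower (−2.14 ± 0.66). Of 21 mitochondrial aminoacyl-tRNA synthetases 1, Lars2, was called, and it was lower (−1.65 ± 0.47), with a list median of −0.10.

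Mitochondrial DNA maintenance and transcription had 11 of 12 genes lower in control GMP, with a median of −0.34. Of all genes, 65.8% were higher there, 7.03% were called higher and 4.95% called lower. The helicase gene Twnk (−1.20 ± 0.24) and the terminator Mterf1a (−1.95 ± 0.50) were called, and Tfam was not (−0.70 ± 0.34, adjusted p = 0.149). Regulators of mitochondrial biogenesis had 10 of 11 lower and a median of −0.71, with 0 called by limma. The smallest adjusted p there were 0.0557 for Gabpb1 (−1.81 ± 0.61), which encodes the partner subunit of GABP, and 0.0661 for Ppargc1b (−1.91 ± 0.67), and Nrf1 had −1.50 ± 0.62 (0.104). Of the 4 ribosome proteins with other symbols, Chchd1 was called higher (1.07 ± 0.31).

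The neighbouring genes on the opposite strand gave a median of 0.10 over 25 partners, against 0.29 for all genes. Of these 25, 15 were higher (65.8% of all genes), 3 were called higher (7.03% of all genes) and 2 called lower (4.95%). The 25 include the members Mrpl46 and Mrps11, and Mrps11 is 1 of the 3 called higher. Mrpl43 and Twnk, which share a promoter region, had 1.17 (adjusted p = 0.231) and −1.20 (adjusted p = 0.00377). Mrps12 gave 1.47 and its partner Sars2, the mitochondrial seryl-tRNA synthetase gene, −0.14 (adjusted p = 0.748). Mrpl51 gave 1.47 and its partner Ncapd2, a condensin subunit gene, −1.15 (adjusted p = 0.0852). Mrpl14 and Tmem63b were both called higher, with 1.86 and 1.36. These pairs were picked from the list after their values were seen.

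**Figure D3:**
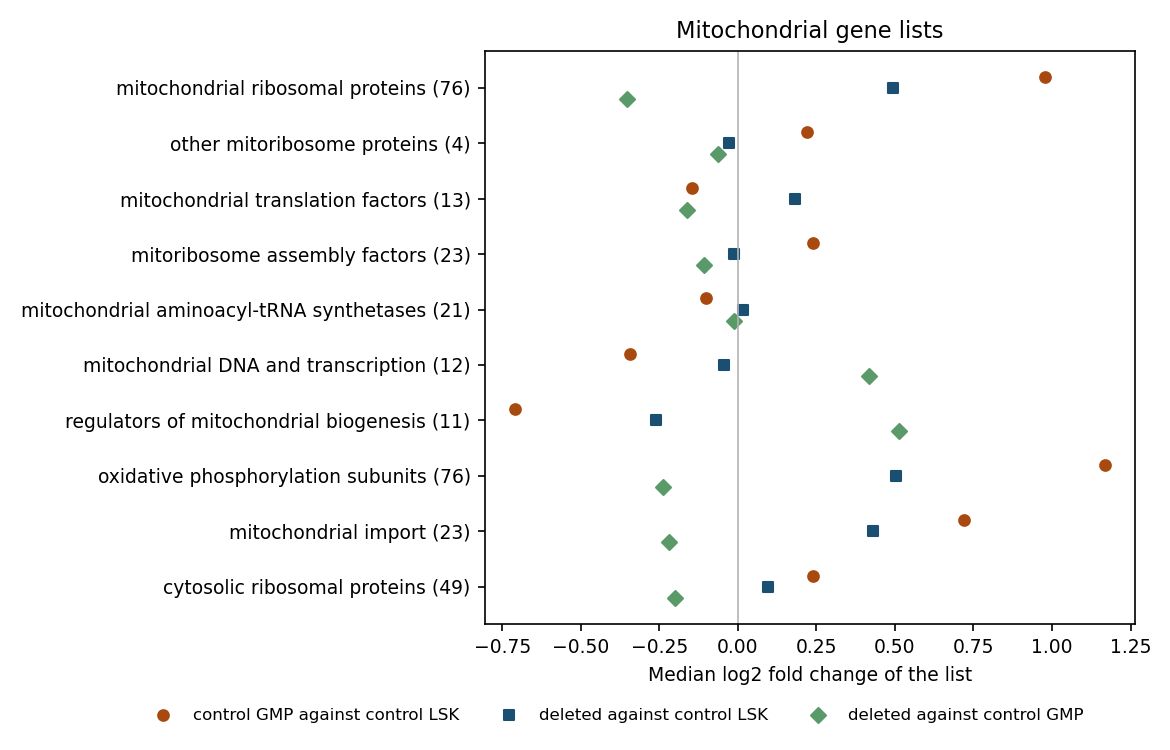
Median log2 fold change of each gene list (number of genes measured in parentheses) in 3 comparisons. Mitochondrial ribosomal proteins (0.98), oxidative phosphorylation subunits (1.17) and import (0.72) lay to the right for control GMP against control LSK, and biogenesis regulators (−0.71) to the left.

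In LSK cells, Dot1l deletion gave no member that passed the test. Limma called 0 of 76 members and 0% of all genes. At an unadjusted p under 0.05, 16 members were higher (21.1% against 3.13% of all genes) and none was lower (2.48% of all genes). In all, 58 of 76 members were higher in Dot1l-deleted LSK (76.3% against 58.4%), with a median log2 fold change of 0.49 against 0.06. The large subunit had a median of 0.42 and the small subunit 0.50. Of the 80 other probe sets of members, 44 had the same sign as the one used. No member separated the groups without overlap in either direction (0.187% of all genes higher, 0.143% lower).

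Mrpl36 again had the smallest p, with values from 7.28 through a median of 7.78 to 8.33 in Dot1l-deleted LSK. These overlapped the control values of 5.18 to 7.64, and the difference was 1.30 ± 0.34 (SE, adjusted p = 0.287). Mrpl20, a counterpart of bacterial L20, ran from 6.61 through 8.31 to 10.57 in deleted cells and from 4.87 through 6.31 to 7.23 in controls. Its difference was 2.06 ± 0.56 (adjusted p = 0.34), the largest of all members. The value of 10.57 came from array K1272, and without that array the difference was 1.60. The next were Mrps18c with 1.18 ± 0.36, Mrps18b with 1.09 ± 0.34, Mrps16 with 1.34 ± 0.44 and Mrps11 with 1.48 ± 0.50, and their adjusted p ran from 0.496 to 0.642. Without K1272 these differences were 1.15, 1.01, 0.92 and 0.98.

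Mrpl12 gave 1.37 ± 0.52 (adjusted p = 0.706), and its values in Dot1l-deleted LSK ran from 6.53 to 11.34. The highest of these, on array K1272, was far outside the control range of 6.98 to 7.61, and without that array the difference was 0.84. Mrps12 gave 0.84 ± 0.40, Mrps36 0.77 ± 0.38, Mrps18a 0.70 ± 0.42, Mrps22 0.48 ± 0.67, Mrps30 0.27 ± 0.40, Mrpl3 −0.05 ± 0.40 and Mrpl44 −0.23 ± 0.25. None of them was called. Of all genes, 58.4% were higher in Dot1l-deleted LSK. Oxidative phosphorylation subunits had 70 of 76 genes higher, with a median of 0.50 and 0 called by limma. The import list had 19 of 23 higher, with a median of 0.43 and 0 called. Translation factors had a median of 0.18, synthetases 0.02, assembly factors −0.01, mitochondrial DNA and transcription genes −0.04 and biogenesis regulators −0.26. Cytosolic ribosomal proteins had a median of 0.10, close to the 0.06 of all genes, beside −0.02 for the 9097 genes above the median level.

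The size of the LSK difference varied with single deleted arrays. Without K1359, 63 of 76 members were higher against 60.1% of all genes, and the median was 0.58. In that run 28 members were higher at an unadjusted p under 0.05, beside 4.81% of all genes. Without K1272, 69 of 76 were higher against 45.2% of all genes, and the median was 0.57. Here 18 members were higher at an unadjusted p under 0.05, beside 3.36% of all genes. With array weights, which gave K1272 the lowest weight, 10 members were called higher, among 446 genes called.

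Progenitor markers moved with the members across LSK arrays. The mean level of the 8 granulocyte-macrophage progenitor markers ran from −0.09 to 0.37 in the 4 deleted LSK arrays with the highest member levels. It was −1.14 in K1272 and −2.87 in K1359. Among control LSK arrays, K1604 and K1553 had the lowest progenitor markers, −2.76 and −2.71, and also the lowest member levels, −0.92 and −0.71. All 8 of these markers were higher in Dot1l-deleted than in control LSK, with a median of 1.03, and all 9 stem markers were lower, with a median of −1.59, though none of either list was called. Markers of mature neutrophils were lower in all 9 genes, with a median of −2.22. Of all genes, 58.4% were higher in this comparison. The part of progenitor or other cells in the members' LSK difference was not tested.

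**Figure D4:**
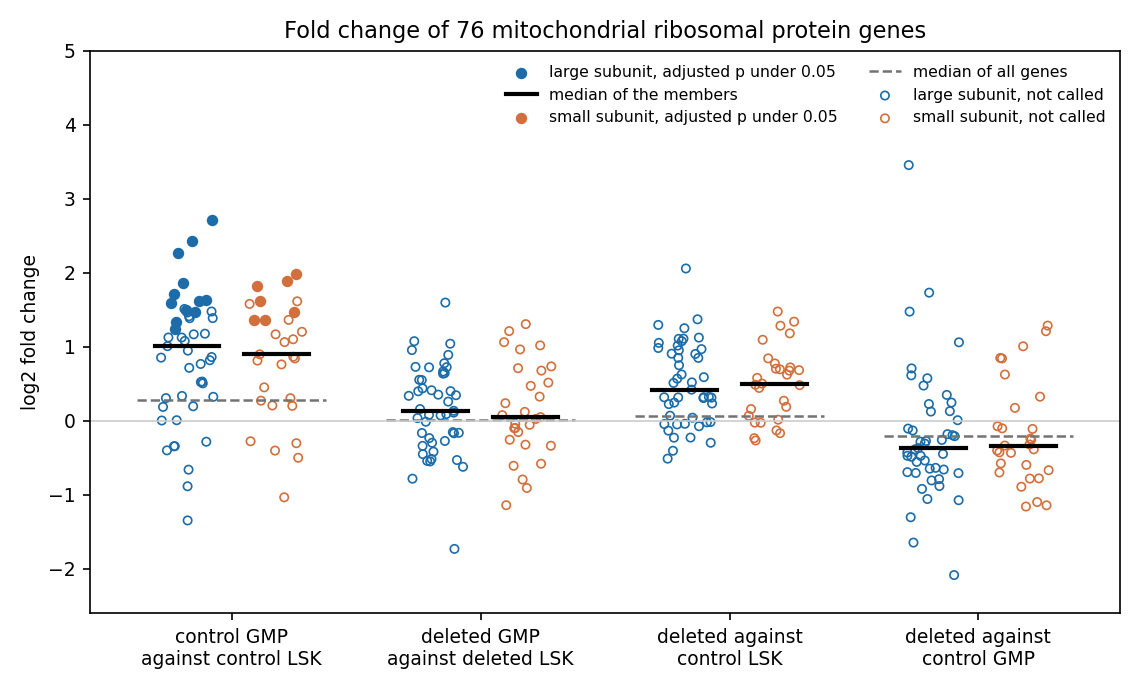
Log2 fold change of each of the 76 members in 4 comparisons, by subunit; filled points had an adjusted p under 0.05, black bars are the medians of a subunit and dashed lines the median of all genes. The 19 filled points all lie in control GMP against control LSK.

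In GMP cells, Dot1l deletion gave no member that passed the test, and more members had lower than higher values. Limma called 0 of 76 members, where 0.143% of all genes were called (0.0824% higher and 0.0605% lower). In all, 22 of 76 members were higher (28.9% against 34.3% of all genes), and the median log2 fold change was −0.35 against −0.20. At an unadjusted p under 0.05, 1 member was higher (5.72% of all genes) and 6 were lower (7.89% against 8.23% of all genes). The large subunit had a median of −0.37 and the small subunit −0.33. Of the 80 other probe sets of members, 51 had the same sign as the one used. Among the 9097 genes above the median level, 50% were higher and the median was 0.00017, so the members lay further below these genes than below all genes. The count of 6 lower was 12 without array K1272 of Dot1l-deleted LSK, 3 without control GMP K1604 and 2 without Dot1l-deleted GMP K1421. For these runs the share of all genes that were lower is not given here. The 1 higher became 4 without control GMP K1602, beside 6.59% of all genes.

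Mrpl1 had the smallest p and was among the 22 members with higher values after deletion. It was 8.86, 9.15, 9.43 and 9.75 in Dot1l-deleted GMP and 3.68, 5.10, 6.36, 6.46 and 7.62 in control GMP, without overlap. The log2 difference was 3.46 ± 0.75 (SE), with an adjusted p of 0.0823. Its 2 other, dimmer probe sets gave −0.43 and 0.03, so the difference was seen with 1 probe set of 3. Mrpl1 was also the only member without overlap in this direction (1.81% of all genes).

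Mrpl54 was 6.27, 6.28, 6.39 and 6.42 in Dot1l-deleted GMP, below all control GMP values, the lowest of which was 6.47. Its difference was −1.65 ± 0.46 (adjusted p = 0.169). The deleted arrays were nearly alike, at an SD of 0.07 against 1.22 in controls. Mrpl14 was 5.39 to 5.74 in deleted and 6.17 to 7.34 in control GMP, also without overlap, at −1.07 ± 0.47 (adjusted p = 0.327). In all, 3 members were lower without overlap (3.95% against 2.97% of all genes). Mrps6, a counterpart of bacterial S6, gave −1.16 ± 0.48, Mrps34 gave −1.10 ± 0.49 and Mrpl55 gave −1.06 ± 0.48. The other Mrps6 probe set, with a mean log2 of 7.04, gave 0.46.

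Of the other members named in each comparison none was called here. Mrpl12 gave −0.64 ± 0.60, Mrps16 −0.89 ± 0.51, Mrps12 −0.78 ± 0.46, Mrps18b −0.32 ± 0.39, Mrps18c −0.07 ± 0.42, Mrps18a −0.24 ± 0.48, Mrpl44 −0.21 ± 0.29 and Mrps30 −0.26 ± 0.47. Mrpl3 with 0.71 ± 0.47, Mrps22 with 1.21 ± 0.78 and Mrps36 with 0.62 ± 0.44 had the opposite sign. Other, dimmer Mrpl3 probe sets gave −0.80, −0.13 and 0.27, so its sign varied with the probe set. Without array K1272 of Dot1l-deleted LSK, again through the common estimate of spread, Mrpl1 and Mrpl14 were called. With the close arrays K1190 and K1272 averaged as 1 sample, 21 of 76 members were higher and the median was −0.41.

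The nuclear gene lists around the ribosome had different signs in this comparison, again with 0 genes called by limma. Of all genes, 34.3% were higher in Dot1l-deleted GMP and 0.143% were called. Oxidative phosphorylation subunits had 18 of 76 genes higher in Dot1l-deleted GMP and a median of −0.24, and the import list 6 of 23 and −0.22. Mitochondrial DNA and transcription genes had 11 of 12 higher and a median of 0.42, among them Tfam, the packaging and transcription factor of mitochondrial DNA, with 1.19 (adjusted p = 0.202). Biogenesis regulators had 9 of 11 higher and a median of 0.51. Cytosolic ribosomal proteins lay at the median of all genes, −0.20, with 8 of 49 higher. That was below the 0.00017 of the 9097 genes above the median level. The control GMP arrays behind these values are those that entered the comparison of control cell types, so the opposite signs in the 2 comparisons are not separate evidence.

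Between Dot1l-deleted cell types the members showed little of the difference seen between controls. Limma called 0 of 76 members for Dot1l-deleted GMP against Dot1l-deleted LSK, where 0.143% of all genes were called (0.0495% higher and 0.0934% lower), and the median log2 fold change was 0.10 against 0.01. In all, 45 members were higher (59.2% against 51.4%). The same sign as the probe set used was seen in 47 of the 80 other probe sets. At an unadjusted p under 0.05, 5 members were higher (3.81% of all genes) and 1 lower (3.47% of all genes). Without overlap, 4 members were higher (1.1% of all genes) and none lower (0.929% of all genes). The count of 5 was 8 without control LSK K1602, 2 without Dot1l-deleted GMP K1190 or K1421 and 1 without Dot1l-deleted LSK K1359. The 1 lower was 3 without Dot1l-deleted LSK K1272. Shares of all genes in these runs are not given here. The smallest p belonged to Mrpl32, whose protein is processed by the inner membrane m-AAA protease, with 1.08 ± 0.39 (SE, adjusted p = 0.425). Mrps15 followed with 1.21 ± 0.49, Mrps6 with −1.14 ± 0.46, Mrps36 with 1.02 ± 0.42, Mrpl1 with 1.60 ± 0.72 and Mrpl51 with 0.72 ± 0.33. Other, dimmer probe sets gave 0.05 and −0.21 for Mrps15 and −0.90 for Mrps6. They gave 0.07 and −0.10 for Mrpl1 and −0.06 and 0.12 for Mrpl51. Without the Dot1l-deleted LSK array K1359, which had the lowest member level of its group, 34 members were higher and the median was −0.05. Oxidative phosphorylation subunits had 61 of 76 genes higher (51.4% of all genes), with a median of 0.48 and 0 called by limma. Between the control cell types they had 72 higher (65.8% of all genes), a median of 1.17 and 44 called higher (7.03% of all genes).

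The deletion effects in the 2 cell types were set against each other in the same fit. The difference, GMP effect minus LSK effect, had a median of −0.81 over the members against −0.26 over all genes, and limma called 0 of 76 members (0.033% of all genes, 0.0165% higher and 0.0165% lower). It was above 0 for 20 members (26.3% against 36.2% of all genes), and for 11 without array K1272 of Dot1l-deleted LSK. At an unadjusted p under 0.05, 22 members had a lower effect in GMP (28.9% against 8.29% of all genes) and 1, Mrpl1, a higher one (2.94 ± 0.99, SE, where 5.3% of all genes did). Mrpl54 had the smallest p, with −2.70 ± 0.61 (adjusted p = 0.143). Mrpl36 gave −1.94 ± 0.52, Mrps11 −2.62 ± 0.77, Mrpl55 −2.13 ± 0.63, Mrps16 −2.23 ± 0.67 and Mrpl14 −2.03 ± 0.62, with adjusted p from 0.181 to 0.227. Here 47 of the 80 other probe sets had the same sign as the one used.

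Of the 76 members, 46 were higher in deleted LSK and lower in deleted GMP than in their controls (60.5% against 44.4% of all genes), 12 were higher in both, 8 lower in both and 10 lower in LSK and higher in GMP. These 2 comparisons share no array. Over members the 2 effects had a Pearson correlation of −0.40, against −0.24 over all genes, and without the Dot1l-deleted LSK array K1272 it was −0.0003 against 0.10, so the correlation rested on that array. Without K1272, 49 members were higher in deleted LSK and lower in deleted GMP, against 26.2% of all genes. In that run 69 of 76 members were higher in deleted LSK, and 22 of 76 were higher in deleted GMP. Such separate leanings give a high count even with no link between the 2 effects. The counts by sign therefore cannot show a link. Genes of 1 family are not independent, so these are descriptions. The comparison of control cell types shares its LSK controls with 1 deletion effect and its GMP controls with the other. For Mrpl54, for example, it gave 2.43 beside 1.05 for deletion in LSK and −1.65 in GMP.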

How the data were processed

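Labelled cRNA of sorted cells was hybridised to Affymetrix mouse arrays. The deposited table holds intensity values of 45101 probe sets on a linear scale, made by the authors with RMA per the submitters' processing notes. The sources used here name no scan batch. Their log2 was taken here from the deposited values without pseudocount or renormalization. By the platform annotation 34958 probe sets name 1 gene, 932 name several and 9211 none, and the brightest probe set of each gene was used.

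Groups came from the sample titles. Limma 3.58.1 in R 4.3.3 fitted 4 group means over 21 arrays, with Benjamini-Hochberg adjustment over 18194 genes and a threshold of 0.05, and was tested on simulated data. The members and lists were chosen with earlier results of these data known, so the lists were described by counts and medians and not tested. Named were, per comparison, up to 8 called members each way by p, the 6 smallest p where under 6 were called, 11 fixed members, up to 3 genes of each list and the 5 genes most like the members. Genes named outside this rule were picked after their values were seen: Mrpl34, Mrpl37, Mrpl43, Mrpl46, Mrpl52, Mrps14, Mrps28 and the opposite-strand neighbours. Mrpl30 and Mrpl53 are named as not measured. Alternatives were other normalizations, probe set choices, filters, variances, weights, sample sets, a block on the K number in the titles, and each array left out. The labels do not say what the K number marks, so it was not used as a pairing in the main fit. Same-numbered arrays of the 2 cell types had deviations correlated over 0.1 in 1 of 9 pairs. As arrays also differ in quality, this cannot show whether same-numbered arrays came from 1 animal. The number of arrays limits the precision.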

Additional observations from a re-analysis of the deposited data

Results flagged for a closer look

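The levels of 27 members (the 19 called between control cell types and others named) and the mean level of each subunit were checked within each group of arrays, 116 sets of values in all. In 7 of the 116 sets, 1 array's gap to its nearest neighbour was above Dixon's critical value, and chance alone gives about 1 in 20 sets, close to this share. In control LSK, Mrpl3 was 8.46 on K1602 while the others ran from 9.47 to 9.82, and Mrpl34 was 7.602 on K1604 while the others ran from 8.62 to 8.80. In Dot1l-deleted LSK, array K1272 had Mrpl14 at 8.023, above the others at 4.79 to 5.72, and Mrps30 at 5.315, below the others at 7.39 to 8.39. On the array K1359 of that group, Mrps14, a counterpart of bacterial S14, was 7.10 while each of the others was at 9.76 or above. In Dot1l-deleted GMP, K1421 had Mrps18a at 6.198, below 7.96 to 8.17, and Mrps22 at 8.886, below 9.38 to 9.46. The causes were not tested.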

How the results depend on the processing

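The median member fold changes kept their direction and moved by less than the spread between arrays under each alternative run, except that Dot1l-deleted GMP against Dot1l-deleted LSK ran from −0.05 to 0.26 over arrays left out. Members called for control GMP against control LSK numbered 12 without probe sets with the suffix _s_at, _x_at or _a_at (62 members left). They numbered 30 with the compared groups alone and 35 with array weights. Those counts are at an adjusted p, and the shares of all genes in these runs are given only at an unadjusted p under 0.05. At that unadjusted p, 24, 39 and 44 members were higher in these runs, in that order, against 36 in the main fit. Beside them stood 23.2, 30.9 and 33.9% of all genes, against 23.1% in the main fit. With the replicate block on the K number, which rests on the numbers found in both sorts, 3 members were called. Leaving out each array gave 9 to 32, stated here without the share of all genes. Array weights called 10 of 76 members for deletion in LSK. In GMP they called 8 of 76 members, among 7152 of 18194 genes, a smaller share of members than of all genes. Between deleted cell types they called 1, with the share of all genes not given here. For the difference of effects they called 20, among 4236 of 18194 genes. In Dot1l-deleted GMP the weights were 8.89 for K1190, 2.32 for K1272, 0.253 for K1359 and 0.297 for K1421. Leaving out each array gave 0 to 2 for deletion in GMP and 0 to 1 for the difference. The block changed no call of the deletion comparisons, where it was a random effect. The upper quartile covariate moved the median of all genes between control cell types from 0.29 to 0.01. Among the 19 called members, Mrpl37 stayed called in 8 of 31 alternatives and Mrps28 in 17 of 32. For Mrpl51 the fold change was 0.03 without probe sets of those suffixes, where a probe set with a mean log2 of 5.15 replaced that of 11.28. Apart from what the settings say of themselves, the cause was not tested.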
